A study of Mus musculus with 5 samples.

Results

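Cytotoxic granule genes were followed in single CD45+ cells sorted from mouse thyroids: 5 granzymes (Gzma, Gzmb, Gzmc, Gzmk, Gzmm), the pore former Prf1, the death ligand Fasl, the granule membrane protein Nkg7 and the protease inhibitors Serpinb9 and Serpinb6b. The genes were chosen by name, with earlier results of these data known. All 10 of 10 were found among the 18767 genes of the deposited count table. The cells came from NOD.WT mice of both sexes, 4 to 6 weeks old when treatment began. In the ICI (immune checkpoint inhibitor) group, 16 mice received anti-PD-1 (clone RPM1-14) together with anti-CTLA-4 (clone 9D9) at 10 mg/kg per dose, by intraperitoneal injection in 2 doses a week for 4 weeks, and their cells were pooled into 4 libraries. In the isotype group, 10 mice received control antibodies (clones 2A3 and MPC11) on that schedule and were pooled into 1 library. NOD mice, the background of both groups, are prone to autoimmunity. All animals were perfused with PBS, thyroids were digested with collagenase, and live CD45+ cells, that is leukocytes, were sorted and sequenced by a 10x 5′ method. The number of mice behind each library is not given in the labels.

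Cytotoxic lymphocytes store granzymes, which are serine proteases, in granules together with perforin, and release both onto a target cell. Perforin opens the target membrane, granzyme B cleaves caspases and other substrates that start apoptosis, and granzymes A, C, K and M have other substrates. Fas ligand kills by a separate route, through the Fas receptor on the target. Serpinb9 inhibits granzyme B and protects the cell that carries it, and Serpinb6b is a related intracellular serpin. In the thyroid, infiltrating lymphocytes with such granules are a feature of destructive autoimmune thyroiditis.

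Several of these genes lie beside each other in the genome. Gzma and Gzmk were 70.6 kb apart on chromosome 13, Gzmb and Gzmc were 17.2 kb apart on chromosome 14, and Serpinb9 and Serpinb6b were 18.0 kb apart on chromosome 13, with 0 protein-coding genes between the members of each pair (RefSeq, GRCm38.p6). The promoters of Gzma, Gzmk and Gzmb are shown because these 3 granzymes had different patterns over the cells, although Gzma and Gzmk are neighbours. Each runs from 250 bases before the annotated start to 50 bases after it, 5′ to 3′ on the minus strand: Gzma at chr13:113100932-113101231, Gzmk at chr13:113180916-113181215 and Gzmb at chr14:56262285-56262584. Capitals mark matches, on either strand, to a Runx motif (TGTGGT), a T-box motif (GGTGTGA), an AP-1 motif (TGANTCA) or an NFAT motif (GGAAAA).
Gzma: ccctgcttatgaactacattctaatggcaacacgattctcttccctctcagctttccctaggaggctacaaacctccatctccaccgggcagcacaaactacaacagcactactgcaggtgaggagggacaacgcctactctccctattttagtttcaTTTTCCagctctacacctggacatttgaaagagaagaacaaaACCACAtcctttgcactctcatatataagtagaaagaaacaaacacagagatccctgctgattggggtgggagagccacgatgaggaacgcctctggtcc
Gzmk: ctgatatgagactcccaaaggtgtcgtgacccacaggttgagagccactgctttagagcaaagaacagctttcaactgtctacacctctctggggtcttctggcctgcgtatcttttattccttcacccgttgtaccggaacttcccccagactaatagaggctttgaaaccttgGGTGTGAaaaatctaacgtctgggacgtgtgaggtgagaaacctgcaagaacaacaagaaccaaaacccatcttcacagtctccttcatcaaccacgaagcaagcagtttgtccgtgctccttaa
Gzmb: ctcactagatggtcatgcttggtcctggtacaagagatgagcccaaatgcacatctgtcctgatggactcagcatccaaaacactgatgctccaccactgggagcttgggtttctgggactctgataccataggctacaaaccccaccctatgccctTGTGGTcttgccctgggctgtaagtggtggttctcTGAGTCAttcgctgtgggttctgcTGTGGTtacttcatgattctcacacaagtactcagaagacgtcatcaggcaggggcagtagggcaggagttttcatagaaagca

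The Gzma window held 1 Runx match and 1 NFAT match, both on the reverse strand, so that they read ACCACA and TTTTCC. The Gzmk window held 1 T-box match and no Runx match, and the Gzmb window held 2 Runx matches and 1 AP-1 match. For 7 of the 10 genes a listed window held the outer start of the annotated gene, and 5 of these 7 had a Runx match there (all but Gzmk and Fasl), against 16.92% of the 27025 mouse promoters of the same table. The windows of the other 3 genes, Gzmc, Serpinb9 and Serpinb6b, lay inside the annotated gene and are not counted. The T-box letters occurred in 3.96% of those promoters, the AP-1 letters in 7.93% and the NFAT letters in 23.62%. A match is a description of the letters and not a binding site.

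There were 1523, 1219, 1163 and 5018 cells in ICI 1, 2, 3 and 4 and 1352 in isotype, with 3858251 to 32296759 UMIs (unique transcript molecules) per library. Ptprc, which encodes CD45, was found in 100% of cells in ICI 4 and isotype and in 82.1% to 92.3% in ICI 1 to 3. Some libraries stood apart. ICI 4 and isotype held 26385 and 3218 UMIs of the red cell globin Hbb-bs, against 0 in ICI 1 to 3. They held 4 and 0 UMIs of Xist, a transcript of female cells, against 2563, 614 and 664 in ICI 1, 2 and 3. ICI 2 and ICI 3 shared 140 cell barcodes, against 0 to 12 in any other pair, and whether they are independent was not tested. The median UMI count per cell was 1753 in ICI 1 and 2844 to 4321 in the other libraries. Since each library pools mice and isotype has n = 1, every p-value below for ICI against isotype measures the spread between ICI libraries only. Fits without ICI 4 set ICI 1 to 3 against isotype, and these differ in Hbb-bs, Xist and Ptprc. In every such fit below, treatment and library set cannot be told apart.

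**Figure D1:**
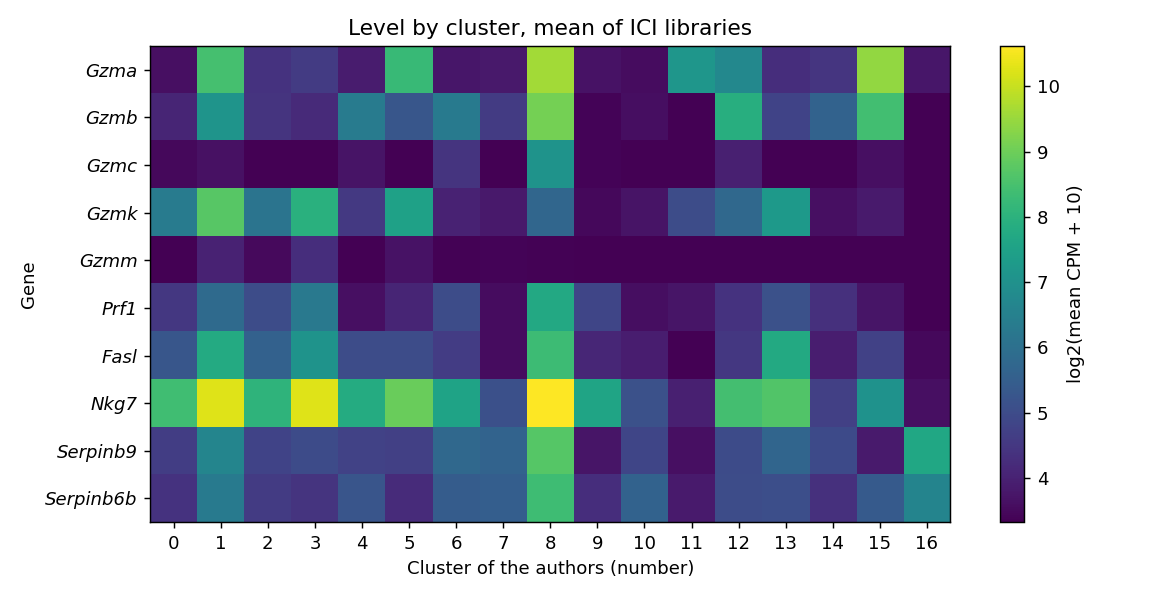
Level of each gene in the authors' 17 clusters, as the mean over ICI libraries with at least 20 cells, in CPM (counts per 1000000 UMIs of the cluster). Cluster 8 carried the highest mean of 8 genes, while Gzmk was highest in cluster 1 and Gzmm in cluster 3.

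The granule genes were concentrated in a few of the authors' 17 clusters. Cluster 8 was natural killer-like, with 9 of 9 natural killer genes at 1.5-fold or more over other cells; its leading genes also hold Gzmb, Serpinb9 and Serpinb6b, so their level there is a description. Cluster 1 was T-like and is led by Gzmk, Ccl5, Ifng, Fasl, Nkg7 and Tbx21. Since Gzmk, Fasl and Nkg7 are among its leading genes, their level there is a description too. Levels are given as CPM, the UMIs of a gene per 1000000 UMIs of that cluster in a library, averaged over ICI libraries with at least 20 such cells.

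Among the granzymes, Gzma averaged 764 ± 686 CPM in cluster 8 (SD, n = 4), 344 ± 151 CPM in cluster 1 (n = 4) and 294 ± 119 CPM in cluster 5 (n = 3), a cycling-like cluster with thymocyte genes. Cluster 15, which only ICI 4 filled with at least 20 cells, had 684 CPM. The spreads of these Gzma levels overlap, so their order is not resolved. Gzmb averaged 539 ± 596 CPM in cluster 8 and 126 ± 141 CPM in cluster 1. In cluster 12, with 7 of 8 cycling genes at 1.5-fold or more, it averaged 228 ± 87.0 CPM (n = 2). These spreads overlap too. The cluster 12 value of ICI 1, 289 CPM, came from 62 UMIs in 1 of 30 cells. In ICI 4 it was 166 CPM, from 34 of 215 cells. Gzmc averaged 124 ± 134 CPM in cluster 8 and at most 11.5 CPM in any other cluster. Its close relatives Gzmd, Gzme, Gzmf, Gzmg and Gzmn were on the list of other pathway genes. They are not reported singly here and could share its reads. Gzmk had another order: 416 ± 211 CPM in cluster 1, 239 ± 280 CPM in cluster 3, 171 ± 267 CPM in cluster 5 and 43.1 CPM in cluster 8, where isotype had none. Gzmm was close to the limit of detection everywhere, with 9.38 ± 18.8 CPM in cluster 3 and 6.10 ± 3.37 CPM in cluster 1.

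Perforin, the death ligand and Nkg7, which is needed for granule release in mouse lymphocytes, were shared more widely. Prf1 averaged 202 ± 117 CPM in cluster 8, 66.7 ± 39.0 CPM in cluster 3 and 48.0 ± 21.8 CPM in cluster 1. Its range over ICI libraries in cluster 8 (115 to 375 CPM) lay above those in cluster 3 (28.7 to 113 CPM) and cluster 1 (26.8 to 72.8 CPM), which overlapped. Fasl averaged 311 ± 46.2 CPM in cluster 8 and 212 ± 58.1 CPM in cluster 1, with ranges that met (263 to 362 CPM and 142 to 267 CPM). Cluster 13, whose cells were shallow (a median of 854 UMIs in ICI), had 207 ± 149 CPM of Fasl (n = 3). Nkg7 averaged 1561 ± 368 CPM in cluster 8, 1226 ± 801 CPM in cluster 3 and 1217 ± 510 CPM in cluster 1, within each other's spread.

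The serpins were not limited to cells with granzymes. Serpinb9 averaged 407 ± 491 CPM in cluster 8 and 89.7 ± 72.8 CPM in cluster 1, but also 194 CPM in dendritic-like cluster 16 (1 library) and 40.0 ± 26.5 CPM in macrophage-like cluster 7. Serpinb6b followed, with 315 ± 352 CPM in cluster 8, 88.7 CPM in cluster 16, 70.5 ± 69.4 CPM in cluster 1 and 39.3 ± 45.4 CPM in cluster 10, which resembles type 2 innate lymphoid cells. In the 43 cells of cluster 16 from ICI 4, Gzmb, Gzmk and Prf1 had 0 UMIs, and Gzma had 3 UMIs in 2 cells. Cluster 7 had some granzyme UMIs, with 14.3 ± 24.7 CPM of Gzmb and 4.24 ± 8.48 CPM of Gzma.

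Free RNA in droplets gives stray UMIs, so shares of cells with a UMI were set beside those in B-like cluster 14, which should lack Nkg7, Gzmk, Gzmm and Prf1. It held 61 cells in ICI 1 and 73 in ICI 4 but 5 each in ICI 2 and ICI 3, where this background was therefore not measured. An Nkg7 UMI was found in 64.3% of cells in cluster 8, 36.2% in cluster 1 and 4.92% in cluster 14 of ICI 1, and in 97.0%, 59.4% and 2.74% in the same clusters of ICI 4 (median depths over ICI cells of 3621, 2958 and 3732.5 UMIs). With each cell thinned to 1000 UMIs the values were 69.2%, 31.8% and 2.44% in ICI 1 and 64.7%, 40.2% and 0% in ICI 4. Gzmk was seen in 24.7% of cluster 1 cells and 0% of cluster 14 cells in ICI 1, and in 35.3% and 1.37% in ICI 4 (after thinning 14.3% and 0%, and 16.4% and 0%). Gzmm was seen in 0.255% and 2.48% of cluster 1 cells in ICI 1 and ICI 4, against 0 of 61 and 0 of 73 cluster 14 cells, which by the limit of 3 counts allows shares of up to 4.92% and 4.11%; a difference in Gzmm was not detectable at this depth. Serpinb9, which was seen in several cell types and may be expressed by B cells, has no such background here. It was found in 19.0%, 6.63% and 6.56% of cells in clusters 8, 1 and 14 of ICI 1 and in 81.4%, 33.4% and 5.48% in ICI 4. Doublets were not removed, and 1 of the 73 cluster 14 cells of ICI 4 held 35 Gzmb UMIs.

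Over the 17 clusters, the genes whose pattern was most like each member's were found by Pearson correlation of log2(mean CPM + 10), among 10911 genes; these are descriptions, since the clusters share libraries. Gzmk was followed most closely by Ppp2r2c (r = 0.83), Ifng and Tbx21, Gzmc by Klrb1a (0.99), Klrb1c and Kir3dl1, and Prf1 by Cd7 (0.92), Samd3 and Crtam. For Fasl these were Nod1 (0.93), Zfp683 and Ifitm10, for Nkg7 Ctsw (0.90), Ms4a4b and Lime1, and for Gzma Ypel1 (0.82), Il12rb2 and Fiz1. Gzmb was followed by Gabpb1 (0.78), Tnfrsf9 and Uprt, Serpinb9 by Icam1 (0.89), Apobr and Efhd2, and Serpinb6b by Nr2f6 (0.83), Klri1 and Fuca2. Within the set, the adjacent genes Serpinb9 and Serpinb6b had r = 0.88, while the adjacent pairs Gzmb with Gzmc and Gzma with Gzmk had 0.66 and 0.36. Gzmk and Serpinb6b had r = -0.055.

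**Figure D2:**
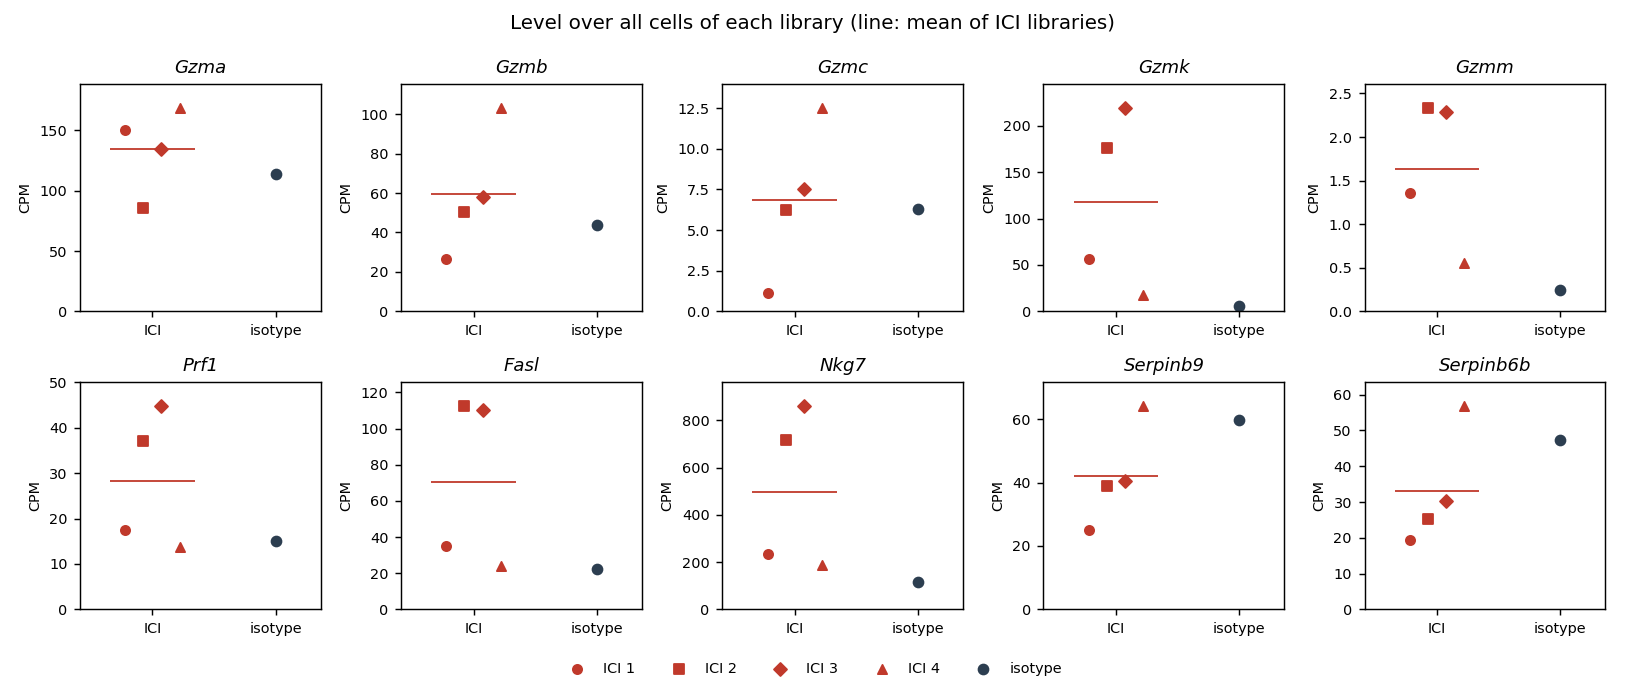
Level of each gene over all cells of each library, in CPM. Gzmk, Gzmm, Fasl and Nkg7 lie above isotype in 4 of 4 ICI libraries, and ICI 2 and ICI 3 carry the highest values of Gzmk, Fasl and Nkg7.

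The first comparison asked whether checkpoint inhibition changed the amount of these transcripts in the thyroid infiltrate as a whole. Gzmk, Gzmm, Fasl and Nkg7 were higher in every ICI library than in isotype, as were 27.3% of all genes, and no member passed the test. Gzmk was 56.4, 176, 219 and 17.7 CPM in ICI 1, 2, 3 and 4, against 6.15 CPM in isotype (95% interval of the count 4.56 to 8.11 CPM). Nkg7 was 232, 715, 860 and 186 CPM in ICI 1 to 4, against 117 CPM in isotype, and Fasl was 35.2, 112, 110 and 24.0 CPM, against 22.4 CPM. For all 3 genes ICI 2 and ICI 3 were high and ICI 4 was nearest to isotype.

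Perforin and the other proteases overlapped with isotype. Prf1 was 17.4, 37.1, 44.7 and 13.7 CPM in ICI 1 to 4, against 15.1 CPM in isotype. Gzma was 151, 85.5, 134 and 169 CPM, against 114 CPM, and Gzmc was 1.13, 6.22, 7.53 and 12.5 CPM, against 6.27 CPM. Isotype lay inside the ICI range for Prf1, Gzma, Gzmb and Gzmc. The serpins leaned the other way: Serpinb9 was 25.1, 38.9, 40.6 and 64.1 CPM in ICI 1 to 4, against 59.8 CPM in isotype, and Serpinb6b was 19.4, 25.4, 30.4 and 56.8 CPM, against 47.4 CPM. ICI 4 alone exceeded isotype for both serpins.

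In edgeR's quasi-likelihood test over summed counts, the log2 fold change (ICI over isotype) was 4.14 for Gzmk (SE 1.69), 1.98 for Nkg7 (SE 1.07), 1.54 for Fasl (SE 1.03), 0.79 for Prf1 (SE 0.75), -0.57 for Serpinb9 (SE 0.54) and -0.58 for Serpinb6b (SE 0.64). Gzmm had 2.52 (SE 1.495), but from 2 isotype UMIs. The smallest Benjamini-Hochberg adjusted p of a member was 0.817. No gene at all passed an adjusted p of 0.05 (0 of 12659 genes, 0%), while 516 had an unadjusted p under that value and DESeq2 called 38. Without ICI 4, edgeR called 210 of 12503 genes (1.68%), and 0 of the 10 members. The members' median log2 fold change was 0.59, against 0.015 over all genes tested, and 4 of 10 members exceeded isotype in all 4 ICI libraries, against 27.3% of all genes. ICI 4, which shares library features with isotype, gave smaller differences: on log2(CPM + 10), ICI 4 alone over isotype was 0.78 for Gzmk, 0.62 for Nkg7, 0.07 for Fasl and -0.083 for Prf1, and the mean over 4 ICI libraries was 2.54, 1.71, 1.09 and 0.52 for the same genes.

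Of the other genes of the pathway, 0 of 32 tested passed, 12 were higher than isotype in every ICI library (27.3% of all genes) and 4 were lower in every one (19.1% of all genes). Examples with positive log2 fold changes, none of which passed, were the cathepsin Ctsw (2.26) and the cystatin Cst7 (1.69), which restrains granule cathepsins. The transcription factors Tbx21 (2.47) and Zfp683 (3.49) were others. These examples do not stand for the list, and the 4 lower genes are not named here. The median over the 8 regulators was 1.33, and over the 7 genes of granule transport and release it was 0.31.

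**Figure D3:**
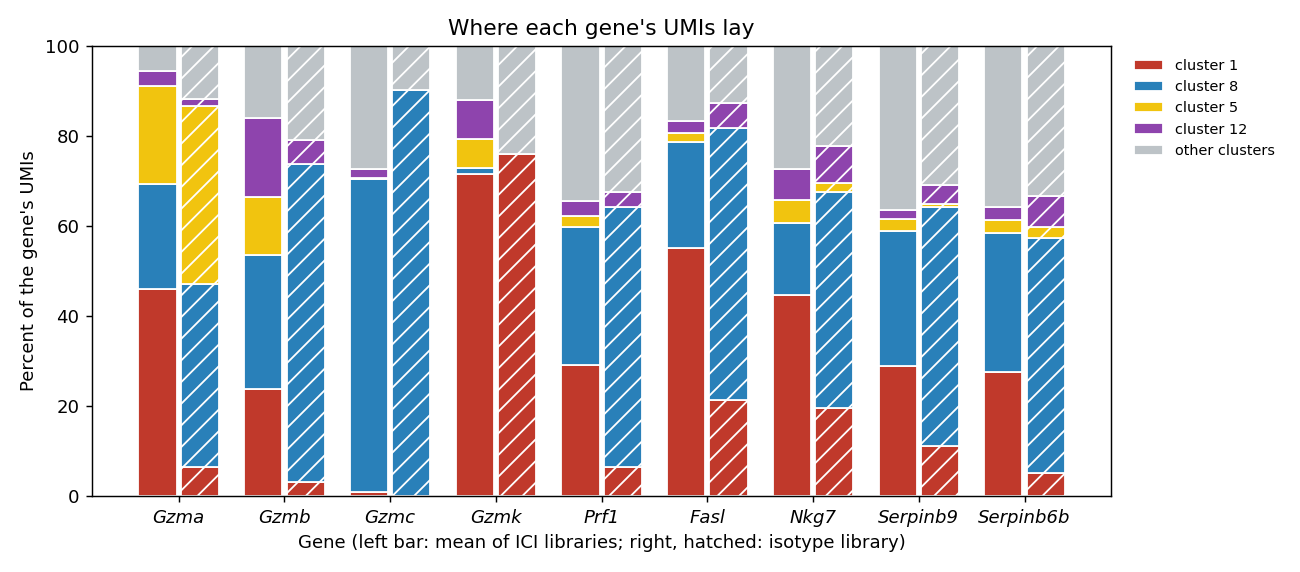
Share of each gene's UMIs that came from clusters 1, 8, 5, 12 and all others, in percent, as the mean of ICI libraries (left bar) and in isotype (right, hatched bar). Cluster 1 held most Gzmk UMIs in both groups (38 of 50 in isotype). Its part of Gzma, Gzmb, Fasl and Nkg7 was larger in the mean of ICI libraries than in isotype. The mean hides the spread between ICI libraries.

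In the mean of ICI libraries, the clusters that supplied the transcripts of several genes differed from those in isotype. Cluster 1 made up 25.7%, 25.7%, 23.2% and 6.44% of cells in ICI 1 to 4, against 3.33% in isotype, so ICI 4 lay near isotype. Cluster 1 held 71.5% of Gzmk UMIs in ICI on average and 76.0% in isotype (38 of 50 UMIs). The ICI shares here are means over libraries and hide the spread between them. ICI 4, with 6.44% of its cells in cluster 1, is not shown by itself. For Fasl, cluster 1 gave 55.0% of UMIs in ICI and 21.4% in isotype, whereas cluster 8 gave 23.8% and 60.4%. For Gzmb, cluster 1 gave 23.8% in ICI and 3.11% in isotype, and cluster 8 gave 29.7% and 70.6%. In summed cells, a change in the number of cells and a change in transcript per cell cannot be told apart, so the levels within clusters follow.

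**Figure D4:**
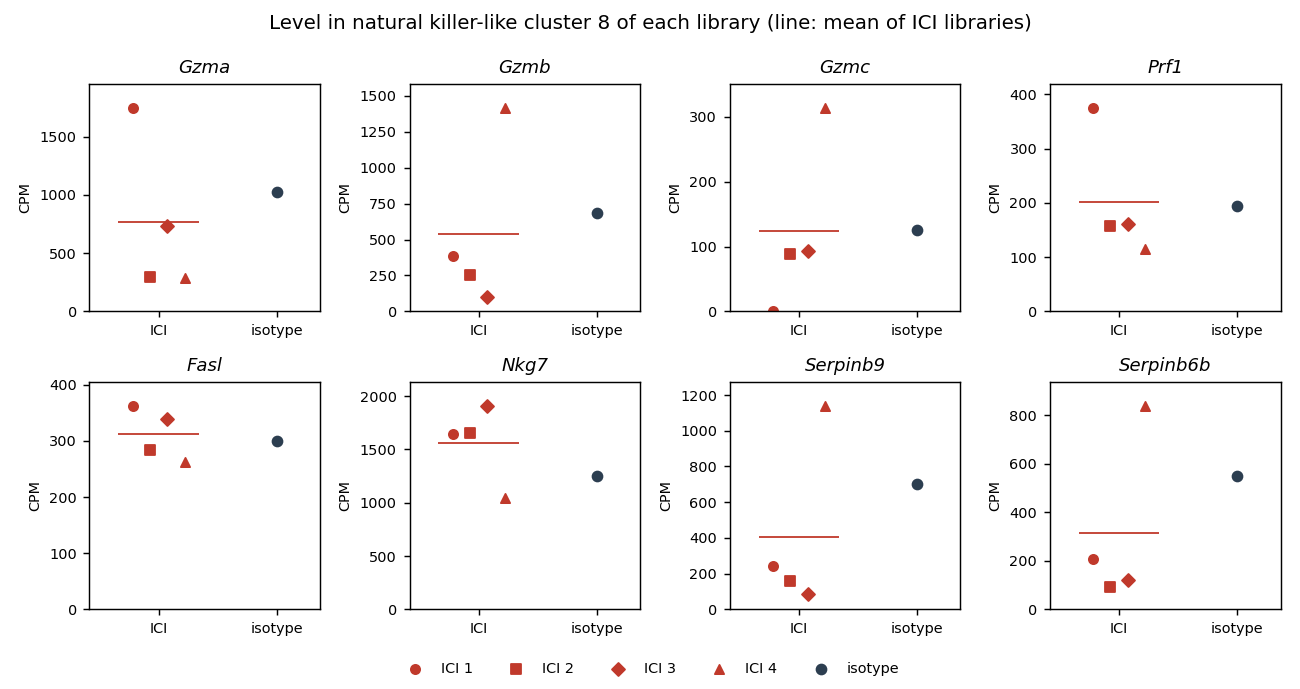
Level of the members in natural killer-like cluster 8 by library, in CPM. In ICI 4, Gzmb, Serpinb9 and Serpinb6b lie above isotype, and in ICI 1 to 3 they lie below it, while Fasl spans 263 to 362 CPM and Nkg7 1040 to 1906 CPM over the ICI libraries.

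In natural killer-like cluster 8, the highest ICI library had 1.38 times the lowest one's level of Fasl and 1.83 times that of Nkg7, but 13.9 times that of Gzmb, 13.0 times that of Serpinb9 and 9.12 times that of Serpinb6b. Fasl was 362, 283, 338 and 263 CPM in ICI 1 to 4, against 300 CPM in isotype, and Nkg7 was 1641, 1658, 1906 and 1040 CPM, against 1248 CPM. Gzmb was 388, 250, 102 and 1415 CPM in ICI 1 to 4, against 681 CPM in isotype. In ICI 1 its 30 UMIs lay in 1 of 42 cells, while in ICI 4 97 of 167 cells (58.1%) held it and in isotype 31 of 76 (40.8%).

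Serpinb9 was 246, 158, 87.4 and 1138 CPM in cluster 8 of ICI 1 to 4, against 703 CPM in isotype (interval of the count 620 to 794 CPM), and Serpinb6b was 207, 91.9, 122 and 838 CPM, against 548 CPM. Thus ICI 4 was above isotype and ICI 1 to 3 were below it for Gzmb and both inhibitors. Gzmc was 0, 88.2, 93.3 and 314 CPM in ICI 1 to 4, against 125 CPM in isotype. Gzma and Prf1 had another order, highest in ICI 1: Gzma was 1745, 298, 732 and 283 CPM, against 1022 CPM, and Prf1 was 375, 158, 160 and 115 CPM, against 194 CPM.

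With all 4 libraries, 0 of the 9 members tested passed in cluster 8 (adjusted p of 0.9999 for each; 0 of 6992 genes, 0%, by edgeR and 0 by DESeq2, with 165 genes at an unadjusted p under 0.05), and their median log2 fold change was -0.28, against 0.044 over all genes tested. Without ICI 4, edgeR called 325 of 6470 genes (5.02%), and Gzmb (-1.94), Serpinb9 (-2.57) and Serpinb6b (-2.40) were among them. In the fit without ICI 4, treatment cannot be told apart from the library features that separate ICI 1 to 3 from isotype. The cells of the cluster differed between libraries beyond these genes. The summed level of the 9 natural killer genes was 4510, 4132, 3153 and 1722 CPM in ICI 1 to 4, against 2507 CPM in isotype, with 9 of 9 detected in each library. That of 6 type 1 innate lymphoid genes was 4627, 4202, 4016 and 682 CPM, against 1235 CPM, and that of 8 cycling genes was 12.9, 25.7, 90.3 and 308 CPM, against 275 CPM. The part of these differences in the granule gene levels was not tested.

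In T-like cluster 1, Gzmk was above isotype in every ICI library, as were 37% of all genes, and Serpinb9 was below it in every one, as were 19%. Gzmk was 261, 499, 676 and 228 CPM in ICI 1 to 4, against 204 CPM in isotype (interval of the count 144 to 280 CPM). Serpinb9 was 38.9, 51.2, 71.9 and 197 CPM, against 290 CPM (interval of the count 218 to 378 CPM). ICI 1 and ICI 4 lay within the isotype counting interval for Gzmk, and no ICI library did for Serpinb9.

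The other members of cluster 1 overlapped with isotype. Gzmb was 13.4, 34.8, 134 and 321 CPM in ICI 1 to 4, against 59.0 CPM in isotype, and Serpinb6b was 21.4, 43.0, 44.3 and 173 CPM, against 107 CPM. Gzma was 559, 239, 236 and 341 CPM, against 322 CPM, and Prf1 was 26.8, 59.4, 72.8 and 32.8 CPM, against 42.9 CPM. Nkg7 was 761, 1519, 1779 and 808 CPM, against 1003 CPM. The isotype values rest on 45 cells and, for Gzmb and Prf1, on 11 and 8 UMIs. For Gzma, a single cell held 46 of the 60 isotype UMIs, and single cells of ICI 1 held 146 and 114 UMIs.

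By edgeR, 0 of 9 members tested passed in cluster 1, against 1 of 9337 genes (0.0107%). Gzmk had a log2 fold change of 0.90 (SE 0.73) and Serpinb9 of -1.72 (SE 0.85, adjusted p of 0.797), and Serpinb9 was called without ICI 4 (-2.61, adjusted p of 0.0310, when edgeR called 58 of 8805 genes, 0.659%). ICI 4 alone over isotype was -0.53 for Serpinb9 and 0.15 for Gzmk on log2(CPM + 10), against means over 4 ICI libraries of -1.83 and 0.86. Of the 9 members, 1 was above isotype in every ICI library and 1 below. The cells of the cluster differed here too: the summed level of the type 1 innate lymphoid genes was 2214, 2545, 2428 and 508 CPM in ICI 1 to 4, against 553 CPM in isotype, and their part in the result was not tested. Over clusters 0, 1, 3, 4, 6 and 9 joined, Serpinb9 was again below isotype in 4 of 4 ICI libraries, with a log2 fold change of -0.83 (SE 0.41; 22.2% of all genes were below isotype in all 4), and Gzmk, Prf1 and Nkg7 were above it in 4 of 4 (27.3% of all genes), while 0 of 11104 genes passed (0%; 829 at an unadjusted p under 0.05 and 50 by DESeq2).

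**Figure D5:**
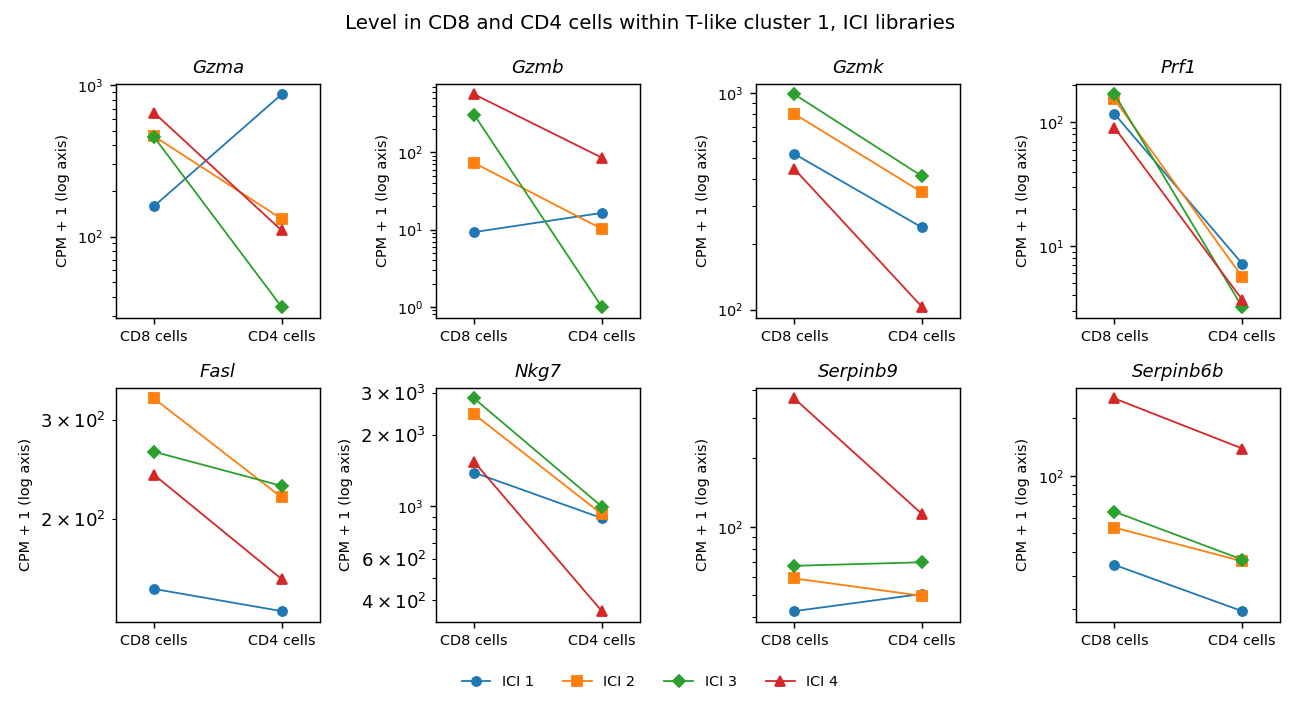
Level of the members in CD8 cells and CD4 cells of cluster 1 in each ICI library, in CPM, with a line joining both classes of a library. Prf1, Gzmk, Fasl, Nkg7 and Serpinb6b are higher in CD8 cells in 4 of 4 libraries, and Serpinb9 in 2 of 4.

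Within cluster 1, CD8 and CD4 cells differed in the level of granule genes. CD8 cells were those with a Cd8a or Cd8b1 UMI and no Cd4 UMI (49, 103, 105 and 89 cells in ICI 1 to 4), and CD4 cells those with a Cd4 UMI and neither CD8 transcript (154, 137, 118 and 151 cells). Their median depths were 2103, 2936, 3815 and 4816 UMIs in CD8 cells, against 1475.5, 2972, 3713.5 and 4117 UMIs in CD4 cells. All 8 members that could be tested were called higher in CD8 cells, against 2.29% of all genes, and perforin differed most. Prf1 was 116, 152, 168 and 89.9 CPM in CD8 cells of ICI 1 to 4, against 6.20, 4.63, 2.22 and 2.68 CPM in CD4 cells. It was found in 34.1% of CD8 cells and 1.23% of CD4 cells on average, and the CD4 share was below the 3.01% in B-like cluster 14 (ICI 1 and ICI 4). The groups did not overlap.

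Gzmk and Nkg7 were present in both classes at different levels. Gzmk was 523, 801, 987 and 446 CPM in CD8 cells, against 239, 348, 412 and 102 CPM in CD4 cells, and Nkg7 was 1387, 2445, 2851 and 1539 CPM, against 890, 925, 996 and 360 CPM. In both genes each library's CD8 cells exceeded its CD4 cells. Gzmb was 8.30, 72.1, 308 and 566 CPM in CD8 cells, against 15.5, 9.27, 0 and 84.5 CPM in CD4 cells, so ICI 1 did not share the difference. Gzma was 158, 460, 455 and 658 CPM in CD8 cells, against 871, 130, 33.3 and 109 CPM in CD4 cells. Of the 281 CD4 Gzma UMIs in ICI 1, 52.0% came from 1 cell.

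Fasl differed least among the called members. It was 149, 327, 263 and 239 CPM in CD8 cells, against 136, 218, 228 and 156 CPM in CD4 cells, and Serpinb6b was 33.2, 52.7, 63.9 and 253 CPM, against 18.6, 34.8, 35.5 and 138 CPM. Serpinb9 was 41.5, 58.2, 66.3 and 366 CPM in CD8 cells, against 49.6, 48.7, 68.7 and 113 CPM in CD4 cells, close in ICI 1 to 3 and apart in ICI 4. Gzmc and Gzmm had too few UMIs to test.

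With library as a block, edgeR gave log2 fold changes (CD8 over CD4) of 5.09 for Prf1 (SE 0.32, adjusted p of 5.58e-13), 3.16 for Gzmb (SE 0.31, adjusted p of 7.8e-09), 1.51 for Nkg7 (SE 0.14, adjusted p of 1.46e-09) and 1.49 for Gzmk (SE 0.13, adjusted p of 1.11e-09). Gzma had 1.52 (SE 0.39, adjusted p of 0.0130), Serpinb9 0.95 (SE 0.22, adjusted p of 0.00628), Serpinb6b 0.84 (SE 0.19, adjusted p of 0.00414) and Fasl 0.49 (SE 0.14, adjusted p of 0.0286). These are 8 of 8 members tested, against 5.35% of 7031 genes called in either direction, 2.29% called higher and 3.06% called lower. Of these members, 5 of 8 were higher in every library, against 8.63% of all genes, and their median log2 fold change was 1.499, against 0.00092.

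Only Prf1, Gzmk and Nkg7 were also called by DESeq2, which called 1.89% of all genes and lost Gzma, Gzmb, Fasl, Serpinb9 and Serpinb6b. With 1 copy of each shared barcode, all 8 calls were made (5.37% of all genes). Without ICI 4 (5.01% of genes called), the calls of Gzma (1.03), Fasl (0.44), Serpinb9 (0.12) and Serpinb6b (0.83) were lost, and without ICI 2 (3.74% called) those of Gzma (1.40) and Fasl (0.41). In isotype, which the fit did not use, 15 CD8 and 10 CD4 cells gave 572 and 30.2 CPM of Gzmk, 1851 and 362 CPM of Nkg7 and 84.1 and 0 CPM of Prf1. Gzmb there was 50.5 CPM in CD8 cells and 60.4 CPM in CD4 cells.

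Of the other pathway genes, 6 of 28 tested passed in this comparison. The cathepsin Ctsw (0.62), Cst7 (1.52), the serpin Serpinb6a (0.69, adjusted p of 0.0489) and the regulators Eomes (5.80) and Hopx (0.59) were called higher in CD8 cells, and Id2 was called lower (-0.44). Eomes, a T-box transcription factor of cytotoxic cells, averaged 74.4 ± 28.8 CPM in CD8 cells and 1.55 ± 3.10 CPM in CD4 cells (SD, n = 4 each). Of the 7 genes of granule transport and release, 0 passed, with a median log2 fold change of -0.30, and Tbx21 had -0.33 (adjusted p of 0.306).

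Members also met in the same cells to different degrees. After thinning each cell to 2000 UMIs, Prf1 was seen in 14.4% of Gzmk-positive cells of cluster 1 and 3.73% of Gzmk-negative cells over the ICI libraries. The direction was the same in ICI 2 (17.7% and 2.96%), ICI 3 (19.3% and 3.16%) and ICI 4 (9.09% and 4.31%), but not in ICI 1 (0% of 46 cells and 4.05% of 74). Over the pooled ICI libraries, Gzmb was seen in 28.9% of Gzma-positive cells and 5.88% of Gzma-negative cells. For Gzmk-positive and Gzmk-negative cells the pooled shares were 10.3% and 6.53%, but the libraries differed. These shares were 4.35% and 1.35% in ICI 1, 2.31% and 2.96% in ICI 2, and 9.63% and 2.11% in ICI 3. In ICI 4 they were 28.6% and 12.1%, and in isotype 9.09% and 20.7%. For Gzma they were 25.0% and 5.14% in ICI 3 and 41.5% and 12.3% in ICI 4. In cluster 8, Serpinb9 was seen in 79.3% of the 82 Gzmb-positive cells of ICI 4 and 63.0% of its 81 Gzmb-negative cells, and in isotype in 80.0% and 43.6%. Cells of a library share their source, so these shares carry no test. The cluster 1 shares were not split into CD8 and CD4 cells, and Prf1 and Gzmk were both higher in CD8 cells there. The part of this class difference in the shares was not tested.

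Gzma was also abundant outside mature effector clusters. In cycling-like cluster 5 it was 158, 380 and 345 CPM in ICI 1, 3 and 4, against 188 CPM in isotype. A Gzma UMI was found in 373 of 546 cells of ICI 4 (68.3%) and 63 of 153 isotype cells (41.2%). Cells of this cluster were deep, with a median of 13852.5 UMIs in ICI and 9503 in isotype, so these shares depend on depth. With each cell thinned to 1000 UMIs they were 21.8% in ICI 4 and 9.15% in isotype, and ICI 1 had 8.06%. ICI 2 had 18 cells there, under the minimum of 20, and was not used. In ICI 4, Gzmb, Gzmk and Prf1 of this cluster were 4.29, 0.733 and 1.57 CPM, so that Gzma stood there with little of the other members. Gzma-positive cells of ICI 4 had 728 CPM of Dntt, the terminal transferase of immature lymphocytes, against 689 CPM in Gzma-negative cells, and 426 CPM of Cd8a, against 967 CPM. In isotype the Cd8a values were 462 CPM and 941 CPM.

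Cluster 5 held different cells in different libraries. The summed level of 10 thymocyte genes was 2559, 555 and 2864 CPM in ICI 1, 3 and 4, against 3004 CPM in isotype, with Rag1, Rag2 and Ptcra at 0 in ICI 3. Gzmk in the cluster was 34.0, 478 and 0.733 CPM in ICI 1, 3 and 4 and 0 in isotype, where 3 counts would be 1.54 CPM, and Nkg7 was 170, 1275 and 7.12 CPM, against 9.22 CPM. ICI 3, which had the fewest thymocyte transcripts, had the most Gzmk and Nkg7, and their part in the result was not tested. Of 9494 genes 3 passed in cluster 5 (0.0316%), and 0 of 8 members. Of these 8, 6 were above isotype in all 3 libraries, against 23.5% of all genes, and for 4 of the 6 (Gzmb, Gzmk, Prf1 and Fasl) isotype had no UMI. Without ICI 4, 203 of 7439 genes passed (2.73%), among them Gzmb, Gzmk and Nkg7 (log2 fold change of 6.24 for Nkg7). In cluster 15, the 57 Gzma-positive ICI cells had 0 CPM of Siglech, a marker of plasmacytoid dendritic cells, and 1353 CPM of Dntt. The 45 Gzma-negative cells had 464 CPM and 567 CPM. Of the Gzma-positive cells, 56 came from ICI 4, out of its 82 cells. ICI 1, 2 and 3 had 11, 4 and 5 cells, with 1, 0 and 0 positive ones. Positive and negative cells therefore differed in library too. Thymocyte-like cluster 11 had 132 CPM of Gzma in ICI (n = 2) and 68.1 CPM in isotype, with Gzmb and Fasl at 0 in ICI.

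Gzmb appeared in regulatory T-like cluster 4, where Prf1 was low in ICI 4 and had few or no UMIs in the other libraries. Gzmb was 9.32, 101, 45.7 and 130 CPM in ICI 1 to 4, against 72.0 CPM in isotype, from 10 UMIs. Prf1 was 3.11, 0, 0 and 5.76 CPM, against 0 CPM, with 15 UMIs over all ICI libraries. Its values of 0 come from 48, 45 and 28 cells in ICI 2, ICI 3 and isotype, too few to show absence. Isotype lay inside the ICI range of Gzmb. Of the 58 Gzmb-positive ICI cells, 82.8% had a Foxp3 UMI, the defining factor of regulatory T cells, and 77.6% an Il2ra UMI. In the 764 Gzmb-negative cells the shares were 46.2% and 38.9%. As 49 of the positive cells came from ICI 4, the result rests mainly on that library. Within ICI 4 the shares were 89.8% and 87.8%, against 49.0% and 44.6% of its 520 negative cells. These cells were not thinned to one depth. Nkg7 was 43.5, 394, 297 and 117 CPM in cluster 4 of ICI 1 to 4, against 0 in 28 isotype cells, where 3 counts would be 21.6 CPM. No member passed there (6 of 4160 genes, 0.144%); Nkg7 passed without the filter on low counts, when 0.563% of genes did, and with ICI 1 to 3 summed, when 0.496% did.

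In cluster 6, which resembles gamma-delta or type 17 T cells, Gzmb was 11.5, 6.64, 8.85 and 248 CPM in ICI 1 to 4, against 154 CPM in isotype. Most of it lay in few cells: 11 cells held the 108 UMIs of ICI 4, with 53 in 1 cell, and 5 cells held the 57 UMIs of isotype, with 29 in 1 cell. ICI 4 and isotype also differed from ICI 1 to 3 in the summed level of 8 gamma-delta and type 17 genes (5424, 5229, 4842 and 1759 CPM in ICI 1 to 4, against 1713 CPM) and of 5 fibroblast genes (0, 0, 0 and 3495 CPM, against 5703 CPM). Cells with at least 10 fibroblast UMIs held 2 of the Gzmb UMIs in ICI 4 and 5 in isotype. No member passed in cluster 6 (0 of 7887 genes, 0%, by edgeR and 6 by DESeq2, with 572 at an unadjusted p under 0.05). Without ICI 4, which held 108 of the ICI Gzmb UMIs, edgeR called 1417 of 8195 genes (17.3%), among them Gzmb (-4.43), Serpinb9 (-1.42) and Nkg7 (1.16).

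In cluster 3, led by Dapl1, Itgae, Ccr7 and Cd7, Gzmk was uneven between libraries. Gzmk was 0, 538, 417 and 0.531 CPM in ICI 1 to 4, with 2 UMIs in the 731 cells of ICI 4, and isotype had none in 57 cells. Nkg7 was 639, 1627, 2157 and 482 CPM in ICI 1 to 4, against 249 CPM in isotype, and Fasl was 0, 275, 219 and 2.12 CPM, against 17.8 CPM. ICI 2 and ICI 3, the pair that shares barcodes, carried the highest values of these 3 genes.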

How the data were processed

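CD45+ thyroid cells were sequenced in 4 ICI libraries and 1 isotype library. The deposited table holds whole-number UMI counts of 18767 genes in 10275 cells. Per the submitters' processing notes, Cell Ranger, Seurat and build mm10 were used. Per the file headers, the authors' cell table assigns 17 clusters and holds cell cycle scores and the percent of mitochondrial UMIs, of which only the clusters were used. Cells were tied to libraries through the cell table, and no column belonged to another sample.

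The 10 genes and the marker and pathway lists were chosen with earlier results of these data known. All 10 genes are named whatever their values. Pathway genes past the threshold are named, as are some that did not pass it. Clusters were named from the marker lists, by genes at 1.5-fold or more over other cells (on CPM + 10, in at least 20% of cells).

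Counts were summed per library over cells, with at least 20 cells. edgeR 4.0.16 (R 4.3.3) fitted quasi-likelihood models over all genes with TMM scaling, filterByExpr (minimum count of 10) and Benjamini-Hochberg adjustment, with a threshold of 0.05. CD8 and CD4 sums of a library are paired because they come from the same pool of cells, so library was a block. Intervals are exact Poisson or Clopper-Pearson at 95% and, like floors of 3 counts, cover counting error only. Thinning to 1000 UMIs dropped shallower cells: 596 of 8923 in ICI and 21 of 1352 in isotype. On simulated sums of all cells (12659 genes), the test recovered 4% of 4-fold and 66% of 16-fold changes, with 6 false calls among 76; for CD8 against CD4 (7031 genes), 100% and 100%, with 8 false calls among 208. Alternatives were DESeq2 1.42.0, RLE scaling, no scaling, no filter, omission of any ICI library, ICI 1 to 3 as 1 sum, 1 copy of each shared barcode, each gene's highest cell left out, CD8 cells by Cd8b1, and no block; no scaling, the highest-cell alternative for CD8 against CD4 and thinning to 2000 UMIs were chosen after seeing the data.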

Additional observations from a re-analysis of the deposited data

Results flagged for a closer look

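Among 69 sets of 4 ICI libraries that reached 10 CPM, 15 had 1 library far from the other 3 by Dixon's gap test. Chance gives about 1 in 20 for independent groups, a rate that cannot be applied here, because the sets overlap (CD8 and CD4 cells are parts of cluster 1) and in 5 of the 15 the other 3 libraries were at 0, where the gap is fixed. In 13 of the 15 that library was ICI 4. In natural killer-like cluster 8, ICI 4 had 1138 CPM of Serpinb9 and 838 CPM of Serpinb6b, against 87.4 to 246 CPM and 91.9 to 207 CPM in the other ICI libraries. In T-like cluster 1, ICI 4 had 173 CPM of Serpinb6b and 10.5 CPM of Gzmc. The CD8 cells of cluster 1 in ICI 4 had 366 CPM of Serpinb9, 253 CPM of Serpinb6b and 16.3 CPM of Gzmc, and its CD4 cells had 138 CPM of Serpinb6b, 12.1 CPM of Gzmc and, as the lowest value, 360 CPM of Nkg7. In cluster 6, ICI 4 had 248 CPM of Gzmb, 45.9 CPM of Gzmc and 13.8 CPM of Gzma. The other exceptions were Gzma in CD4 cells of ICI 1, at 871 CPM, and Gzmm in cluster 3 of ICI 2, at 37.5 CPM from 3 UMIs.

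Serpinb9 was above isotype in all 3 ICI libraries used in cluster 5 (log2 fold change of 2.94, from 3 isotype UMIs) and below it in all 4 in cluster 1 (-1.72). This difference between clusters was not tested.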

How the results depend on the processing

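Without the replicate block for library, 34 genes were called between CD8 and CD4 cells, against 376 with it, and of the members only Prf1 kept its call. DESeq2 called 133. No paired analysis was possible for ICI against isotype because there is 1 isotype library. Leaving out each ICI library in turn gave 255 to 344 calls for CD8 against CD4, 0 to 210 for all cells, 1 to 58 for cluster 1, 4 to 68 for cluster 4, 0 to 203 for cluster 5, 0 to 1417 for cluster 6, 0 to 325 for cluster 8 and 0 to 270 for clusters 0, 1, 3, 4, 6 and 9 joined. The highest value of each ICI range came without ICI 4. That leaves ICI 1 to 3, which differ from isotype in Hbb-bs, Xist and Ptprc. DESeq2 called 38 genes in all cells (main 0), 4 in cluster 1 (main 1), 8 in cluster 5 (main 3), 6 in cluster 6 (main 0) and 50 in the joined clusters (main 0). With no filter on low counts the calls were 5 in cluster 1, 80 in cluster 4 (main 6), 14 in cluster 5, 1 in cluster 6, 3 in cluster 8 (main 0) and 5 in the joined clusters. Leaving out the highest cell of each gene gave 1 in all cells and 0 in clusters 1, 4 and 5. With ICI 1 to 3 summed they were 40 in cluster 4 and 0 in cluster 5, and with 1 copy of each shared barcode 13 in cluster 5. The cause was not tested.

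For single members, 585 of the values under alternatives kept their direction and side of the threshold, 12 passed it newly, 20 lost it and 37 changed sign, all of these from values that had not passed. In cluster 1 the sign changed for Gzma without scaling (0.094) and without the highest cell (1.31), for Prf1 with ICI 1 to 3 summed (-0.12) and without the highest cell (-0.15), for Fasl without scaling (0.020) and for Nkg7 with ICI 1 to 3 summed (-0.028). In cluster 4, Gzmb was 0.021 with no filter, 0.068 without scaling, 0.15 with ICI 1 to 3 summed and 0.060 without the highest cell. In cluster 6, Fasl was -0.026 by DESeq2 and -0.17 without the highest cell, and Serpinb9 was 0.16 with ICI 1 to 3 summed. In cluster 8, Gzmb was 0.25 with ICI 1 to 3 summed, Gzmc -0.063 by DESeq2 and Fasl 0.044 without scaling. In the joined clusters with ICI 1 to 3 summed, Gzmb was 0.038 and Serpinb6b 0.23. No scaling moved the median of all genes in all cells to 0.115, from 0.0153 with TMM.

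With each ICI library left out in turn, the log2 fold change ranged from -0.015 to 0.33 for Gzma, -0.078 to 0.65 for Gzmb and -0.46 to 0.45 for Gzmc in all cells. In cluster 1 it ranged from -0.29 to 0.028 for Gzma, -0.090 to 1.47 for Gzmb, -0.26 to 0.26 for Prf1, -0.24 to 0.094 for Fasl and -0.12 to 0.36 for Nkg7. In cluster 4 it was -0.89 to 0.36 for Gzmb. In cluster 6 it was -0.75 to 0.033 for Prf1, -0.032 to 0.35 for Fasl and -0.94 to 0.89 for Serpinb6b. In cluster 8 it was -0.97 to 0.40 for Gzmc and -0.039 to 0.17 for Nkg7. In the joined clusters it was -0.90 to 0.0021 for Gzmb and -0.46 to 0.17 for Serpinb6b. In CD8 against CD4, Serpinb6b lost its call without the highest cell (0.64, adjusted p of 0.0707) and Fasl without scaling (0.43, adjusted p of 0.0696), beside the losses given with that comparison.

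Depth limits Gzmm and Gzmc most, and isotype values of cluster 1 rest on 45 cells.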
